A study of Mus musculus with 6 samples.

Results

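The cytosolic and mitochondrial heat shock chaperones were followed as a set of 45 genes taken by annotated symbol: the HSP70, HSP110 and HSP90 families, their J-protein, BAG and other co-chaperones, the small heat shock proteins, the mitochondrial and cytosolic chaperonins, and the heat shock factors. Of these, 42 had a probe set annotated to that gene alone and were tested among 19933 genes. Hsp90ab1 and Hsf1 had no named probe set here, and Hspa1b shared its only one with Hspa1a.

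Chaperones bind unfolded stretches of other proteins and let them fold. HSP70 proteins do so in cycles of ATP binding and release, in which J proteins deliver the client and BAG and HSP110 proteins exchange the nucleotide. HSP90 and the chaperonins act on later or particular folding intermediates. Heat shock factor 1 raises the stress-inducible members by binding heat shock elements in their promoters, while many other members are made at a high level in unstressed cells.

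RNA of isolated jejunal epithelium, the lining of a stretch of mouse small intestine, was hybridised to Affymetrix Gene 1.0 ST arrays. The 3 control mice had the genotype R26-M2rtTA, the reverse tetracycline transactivator placed at the Rosa26 locus. The 3 others were TRE-MSI2::R26-M2rtTA, with a tetracycline-responsive transgene for the RNA-binding protein MSI2 added, and are labelled transgenic (MSI2-induced in the plots). All 6 mice drank doxycycline for 24 hours, so the transactivator and the drug are common to both groups. The Rosa26 locus is known to be active in most cell types, and induction outside the epithelium was not measured here. The ages and strain of the mice are not given in the sources used here. Values are log2 expression, and the comparison asks how chaperone transcripts differ between these groups after the 24 hours.

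The arrays were checked against their labels first. Msi2 read 11.30, 9.53 and 9.32 in control replicates 1 to 3 and 11.23, 10.58 and 11.44 in transgenic replicates 1 to 3, so control replicate 1 lay within the transgenic range (log2 difference 1.03, adjusted p = 0.257 in limma). Without it the difference was 1.66 (adjusted p = 0.00958 in limma). That array was singled out by this same Msi2 value, which enlarges the difference, so the refit is no test of Msi2. Msi1, the paralog, read 7.20 to 7.97 in the arrays labelled control and 12.82 to 13.53 in those labelled transgenic, with no overlap (log2 difference 5.66, adjusted p = 0.000818 in limma, and 5.47 without control replicate 1). The larger rise was thus in Msi1 and not in Msi2, the gene the transgene is named for. The cause of this was not tested, and these values leave the induction of MSI2 itself unsettled. Because Msi2 goes against the label of 1 array, groups are named by their labels and results that change with control replicate 1 are given with and without it. Of 8 epithelial markers 2 were higher, Krt18 by 1.47 and Cdh1 by 0.32, and 2 lower, Vil1 (-0.80) and Cdx2 (-0.82), with adjusted p values of 0.00221, 0.0432, 0.0453 and 0.017 in limma. Cdh1 did not pass with the replicate block (adjusted p = 0.0718 in limma). Epcam read 12.60 to 12.87 in all 6 arrays, and the summed level of the 8 was 15.51 to 15.56 (log2) in the controls and 15.54 to 15.64 in the transgenic arrays. All 9 markers of T cells and intraepithelial lymphocytes were lower in the arrays labelled transgenic, with a summed level of 12.53 to 13.19 against 10.11 to 11.38. In bulk samples, fewer cells of a type and less RNA per cell cannot be told apart. Of 5 measured B and plasma cell markers and 9 of stroma, muscle and endothelium none passed in limma, also at an unadjusted p under 0.05. The stromal Dcn read 7.72 in control replicate 1 against 5.37 and 5.55 in the other controls and 5.95 to 6.56 in the transgenic arrays. Without that array it was 0.78 higher in the transgenic group and passed (adjusted p = 0.0322 in limma). Of 7 myeloid markers S100a9 alone passed, at 1.14 higher. Cd68, at 0.41 higher, missed the threshold (adjusted p = 0.0985) and reached it with the replicate block (adjusted p = 0.0232 in limma). The part of these other cells in the chaperone values was not tested.

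Of the 42 chaperone genes, 33 did not pass the test in either direction. At an adjusted p under 0.05 in limma, 8 of the 42 members (19.0%) were higher in the arrays labelled transgenic, where 8.97% of all genes were. Only Hspa4l was lower, 2.38% of the members, where 9.65% of all genes were. The median log2 difference was 0.31 over the members and 0.02 over all genes, and 34 of 42 members (81.0%) had a positive difference, against 54.2% of all genes. The groups did not overlap for 17 members that read higher (40.5%) and 2 that read lower (4.76%), where the background was 19.5% and 17.5%. At an unadjusted p under 0.05, 20 members were higher and 2 lower, where 3369 and 3242 of the 19933 genes were. Among the 9 members that passed, Dnajb4, Bag3 and Bag2 differed by at least 2-fold.

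The count of members that rose depended on the arrays and on the fit. It was 19 (45.2%) without control replicate 1, where 13.4% of all genes were higher. With the replicate number as a block it was 13 (31.0%, background 12.7%), and with animal sex as a block it was 2 (4.76%, background 5.36%). Without control replicate 2, control replicate 3, transgenic replicate 1 or transgenic replicate 3 it was 1 each time (2.38%), where 2.39%, 2.39%, 3.31% and 2.62% of all genes were higher. Bag3 was the member called in all of these fits, and Bag2 was the other with sex as a block. Without transgenic replicate 2 it was 10 (23.8%, background 11.0%). The share of members was thus near the background in the fit with sex and in those 4 with an array left out, and above it in the others named. Hspa4l was the member that fell with the block, with sex as a block and without control replicate 1, transgenic replicate 1 or transgenic replicate 2, where 13.1%, 5.47%, 14.4%, 3.57% and 9.49% of all genes fell. Without control replicate 3 it was Hspa1a instead (background 2.39%). Without control replicate 2 or transgenic replicate 3 no member fell in limma, 1 each doing so at an unadjusted p under 0.05, with backgrounds of 2.51% and 2.76%.

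**Figure D1:**
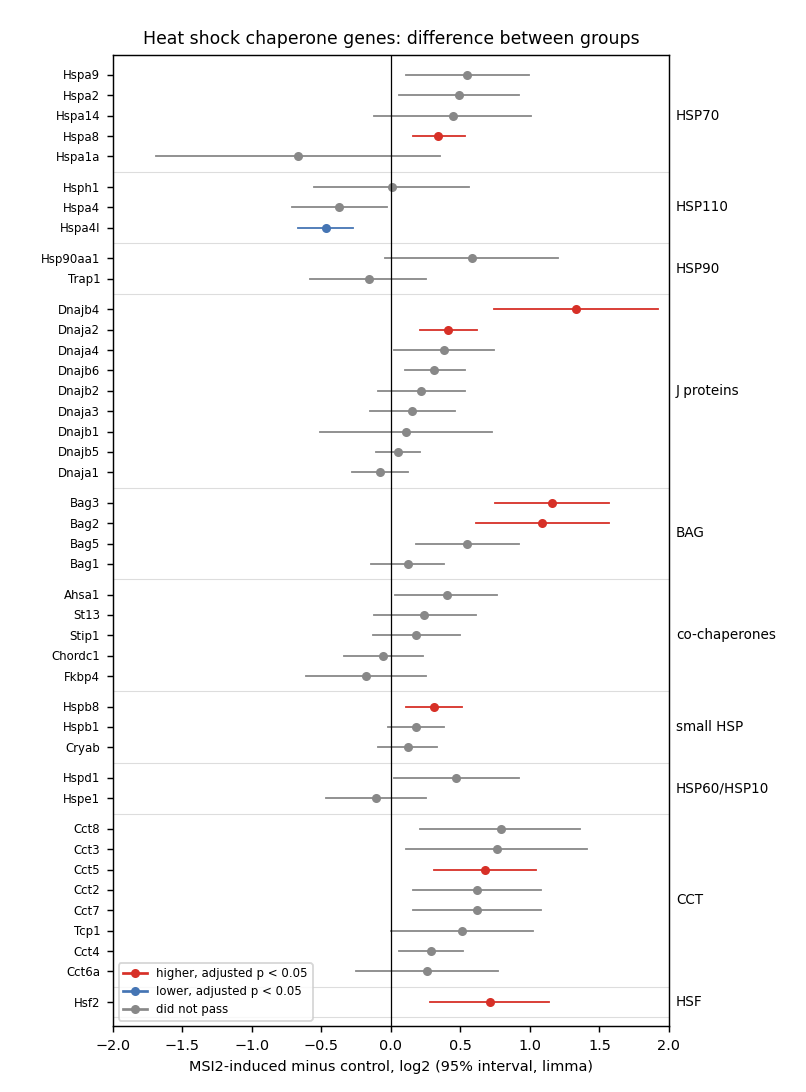
Difference between the arrays labelled transgenic (MSI2-induced) and control for the 42 measured chaperone genes, by family, on the log2 scale with the 95% interval from limma (n = 3 arrays each). Dnajb4, Bag3 and Bag2 lie farthest to the right, between 1.09 and 1.33, all 8 CCT points lie right of 0, and Hspa4l is the 1 gene called lower.

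Among the nucleotide exchange factors of HSP70, 2 of the 4 BAG genes rose, where 8.97% of all genes did. Bag3 was the 1 member whose call held whichever array was left out. Bag3, a co-chaperone that links HSP70 and small heat shock proteins to selective autophagy, read 8.44, 8.85 and 8.69 in control replicates 1 to 3 and 9.82, 9.55 and 10.08 in transgenic replicates 1 to 3. The lowest transgenic array lay above every control, and control replicate 1 was the lowest of all. The rise was 1.16 ± 0.17 (SE) on the log2 scale, or 2.23-fold (adjusted p = 0.0102 in limma, n = 3 each). Its highest adjusted p with 1 array left out was 0.0498, without control replicate 3, and the difference without control replicate 1 was 1.05.

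Bag2, which inhibits the ubiquitin ligase CHIP, read 6.41, 5.85 and 6.10 in the controls and 7.40, 6.88 and 7.35 in the arrays labelled transgenic. The groups did not overlap, and control replicate 1 was the highest control. It rose 2.13-fold (1.09 ± 0.20 (SE) on the log2 scale, adjusted p = 0.0177 in limma), with adjusted p values up to 0.0763, without transgenic replicate 3. Stub1, the gene of CHIP, was 0.51 lower (log2 difference -0.51, adjusted p = 0.0218 in limma). Bag5 read 7.13 to 7.53 in the controls and 7.62 to 8.03 in the transgenic arrays, without overlap. Its difference of 0.55 missed the threshold (adjusted p = 0.0535) and reached it with the replicate block (adjusted p = 0.0266) and without control replicate 1 (adjusted p = 0.0226 in limma). Bag1, the founding member, differed by 0.12 with a 95% interval from -0.14 to 0.38. All 4 BAG differences were positive.

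The J proteins, which bring clients to HSP70 and start its ATP hydrolysis, were uneven. Dnajb4 had the largest difference of all 42 members. It read 8.54, 8.98 and 8.60 in the controls and 10.41, 9.55 and 10.15 in the arrays labelled transgenic, where replicate 2 was the lowest but still above every control. The rise was 1.33 ± 0.24 (SE), or 2.52-fold (adjusted p = 0.018 in limma), and without 1 array the adjusted p reached 0.0774, without transgenic replicate 3. Dnaja2, a cytosolic partner of HSC70, read 10.84, 10.75 and 10.70 against 11.21, 11.07 and 11.25. These groups did not overlap either, and the rise was 0.41 ± 0.08 (adjusted p = 0.0238, up to 0.0933 without control replicate 3, in limma).

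Dnajb6, which suppresses protein aggregation, read 6.53 to 6.62 in the controls and 6.75 to 6.99 in the transgenic arrays, without overlap, and did not pass (0.31 ± 0.09, adjusted p = 0.0584 in limma). Another 4 probe sets annotated to Dnajb6 together with Gm4247 differed by 0.31 to 0.35, with adjusted p values between 0.0569 and 0.0611 in a limma fit over all 28350 probe sets. Dnajb1, the classical stress-inducible partner of HSP70, read 8.37, 9.13 and 8.88 in the controls and 8.84, 8.57 and 9.29 in the arrays labelled transgenic. Its groups overlapped throughout, and the difference was 0.11 with an interval from -0.51 to 0.73. Dnaja1 differed by -0.08 (interval -0.28 to 0.12). Of the 9 J-protein members 2 rose (22.2%) and none fell in limma, where 8.97% and 9.65% of all genes did. At an unadjusted p under 0.05 the counts were 4 and 0, where 3369 and 3242 of the 19933 genes were higher and lower.

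Of 5 measured HSP70 genes 1 rose and none fell in limma, where 8.97% and 9.65% of all genes did. At an unadjusted p under 0.05 the counts were 3 and 0, where 3369 and 3242 of the 19933 genes were higher and lower. Hspa8, the constitutive cytosolic HSC70, read 13.36, 13.37 and 13.30 in the controls and 13.75, 13.59 and 13.73 in the arrays labelled transgenic. The controls lay within a narrow band and every transgenic array was above it. The rise was 1.27-fold (0.34 ± 0.08 (SE), adjusted p = 0.0308, up to 0.114 without control replicate 3, in limma). Its 2 other probe sets gave 0.37 each, with adjusted p values of 0.0333 and 0.066 over all probe sets in limma. Hspa8, Hspa1a, Hsp90aa1, Hspd1, Hspe1 and Dnaja1 have close copies or pseudogenes in the genome, and probes shared with those leave their values uncertain. A further pair of probe sets, annotated to Hspa8 together with the small nucleolar RNA genes Snord14c and Snord14d, moved the other way, with log2 differences of -0.87 and -0.86 that did not pass (adjusted p = 0.0922 and 0.0967 in limma).

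Hspa1a, the strongly stress-inducible HSP70 gene, did not separate the groups. It read 8.42, 8.27 and 6.85 in control replicates 1 to 3 and 7.18, 6.97 and 7.39 in transgenic replicates 1 to 3. The first pair of controls lay above all transgenic arrays and control replicate 3 below them. The log2 difference was -0.67 with a 95% interval from -1.69 to 0.35 (adjusted p = 0.335 in limma). Without control replicate 3 it was -1.17 and passed (adjusted p = 0.0312), whereas without control replicate 1 or 2 it was -0.38 or -0.46 (adjusted p = 0.569 and 0.623 in limma). The probe set annotated to both Hspa1a and Hspa1b split the controls in the same way, at 10.20, 9.96 and 8.35, against 8.93 to 9.36 in the transgenic arrays.

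Hspa9, the mitochondrial HSP70 mortalin, read 11.85, 11.29 and 11.28 in the controls and 12.13, 11.84 and 12.11 in the arrays labelled transgenic. Control replicate 1 reached the lower edge of the transgenic range. The difference of 0.55 ± 0.18 (SE) missed the threshold (adjusted p = 0.0845) and reached it with the replicate block (adjusted p = 0.0368) and, at 0.74, without control replicate 1 (adjusted p = 0.00886 in limma). Hspa14, an HSP70 of the ribosome-associated complex, differed by 0.45 and Hspa2, known best from testis, by 0.49, with adjusted p values of 0.243 and 0.108 in limma.

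The HSP110 proteins, HSP70 relatives that act as its exchange factors, included the 1 member that fell. Of the 3, 2 read lower in every array labelled transgenic than in any control, as did 17.5% of all genes. Hspa4l read 8.23, 8.38 and 8.31 in the controls and 7.92, 7.83 and 7.75 in the arrays labelled transgenic, with no overlap. It fell by 0.47 on the log2 scale (SE 0.08, adjusted p = 0.0164, up to 0.0712 without control replicate 2, in limma). Hspa4 read 10.68 to 11.09 against 10.36 to 10.63, also without overlap, and its difference of -0.37 did not pass (adjusted p = 0.121 in limma). Hsph1, the stress-inducible relative, read 8.88, 9.45 and 8.69 against 9.25, 8.73 and 9.07. It differed by 0.01, with an interval from -0.55 to 0.56.

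**Figure D2:**
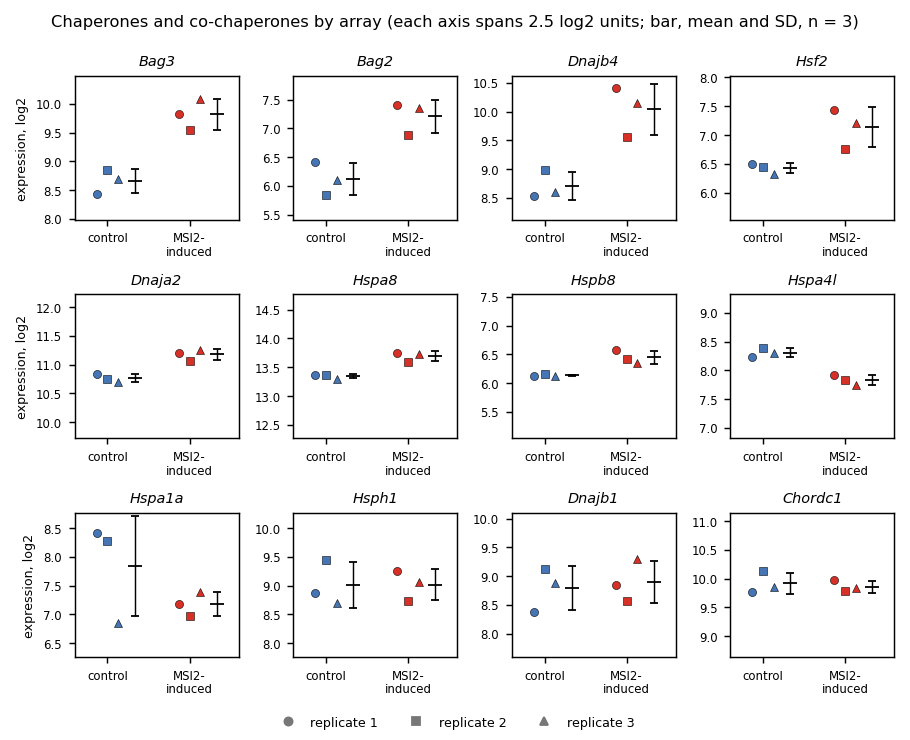
Log2 expression of 12 chaperone and co-chaperone genes in each array, with replicate numbers as symbols and the mean and SD of each group (n = 3) as a bar. The transgenic (MSI2-induced) arrays lie above all controls for Bag3, Bag2, Dnajb4, Hsf2, Dnaja2, Hspa8 and Hspb8 and below them for Hspa4l, and the groups overlap for Hspa1a, Hsph1, Dnajb1 and Chordc1.

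Among the heat shock factors and small heat shock proteins, Hsf2 and Hspb8 rose. Hsf2, a factor that can pair with heat shock factor 1, read 6.49, 6.45 and 6.33 in the controls and 7.44, 6.76 and 7.21 in the arrays labelled transgenic. It rose by 0.71 ± 0.18 (SE) (adjusted p = 0.0407, up to 0.138 without control replicate 3, in limma). Hspb8, a small heat shock protein that works with BAG3, read 6.13, 6.15 and 6.13 against 6.57, 6.42 and 6.35. The controls were nearly equal, and the difference of 0.31 passed narrowly (adjusted p = 0.0489), but not with the replicate block (adjusted p = 0.0652), nor without control replicate 1 (adjusted p = 0.0669 in limma). It also missed the threshold without each other array, and on quantile-normalized or median-centred values (adjusted p = 0.0719 and 0.0628 in limma). Hspb1, the small heat shock protein HSP27, read 5.66 to 5.79 against 5.81 to 5.98 without overlap (difference 0.18, adjusted p = 0.187 in limma). On the other Hspb1 probe set the groups overlapped, at 5.56 to 5.66 against 5.63 to 5.88. The difference there was 0.14 (adjusted p = 0.383 over all probe sets in limma). Cryab, alpha-B crystallin, lay between 5.19 and 5.49 in all 6 arrays, with a difference of 0.12.

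For HSP90, Hsp90aa1, the stress-inducible cytosolic isoform, read 11.88, 11.18 and 10.94 in the controls and 12.10, 11.70 and 11.96 in the arrays labelled transgenic. Control replicate 1 lay among the transgenic arrays, and the difference of 0.58 did not pass (interval -0.04 to 1.20, adjusted p = 0.173 in limma). Without that array it was 0.86 and passed (adjusted p = 0.0119 in limma). The mitochondrial relative Trap1 differed by -0.16 (interval -0.58 to 0.25). Of the 5 HSP90 and HSP70 co-chaperones Ahsa1, St13, Stip1, Chordc1 and Fkbp4, none passed in limma and 1, Ahsa1, did at an unadjusted p under 0.05. Ahsa1, which activates the ATPase of HSP90, differed by 0.40 (interval 0.03 to 0.76). The adaptor Stip1, which hands clients from HSP70 to HSP90, differed by 0.18 (interval -0.13 to 0.50), and the immunophilin Fkbp4 by -0.18 (interval -0.61 to 0.25). Chordc1 read 9.77, 10.13 and 9.86 against 9.98, 9.78 and 9.83, a difference of -0.06.

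The cytosolic chaperonin CCT, also called TRiC, is a ring of 8 different subunits that folds actin and tubulin. All 8 subunits had higher means in the arrays labelled transgenic, with a median log2 difference of 0.62, from 0.26 for Cct6a to 0.79 for Cct8. In the fit of all 6 arrays 1 subunit passed, where 8.97% of all genes were higher. Cct5 read 10.65, 10.27 and 10.25 in the controls and 11.20, 10.85 and 11.15 in the transgenic arrays, and rose by 0.68 ± 0.15 (SE) (adjusted p = 0.0302, up to 0.112 without control replicate 3, in limma). With the replicate block 5 passed, where 12.7% of all genes were higher. Cct2, Cct3, Cct7 and Cct8 were those in addition (adjusted p = 0.0292, 0.0368, 0.028 and 0.0238 in limma). Without control replicate 1 all 8 passed, where 13.4% of all genes were higher. With sex as a block the lowest adjusted p of the 8 was 0.0533, for Cct5 (limma).

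Control replicate 1 stood above both other controls in all 8 subunits. Cct8 read 10.35 in it against 9.57 and 9.51 in the other controls and 10.74, 10.45 and 10.60 in the arrays labelled transgenic. Cct3 read 11.35 against 10.44 and 10.44, and 11.64, 11.29 and 11.57 in the transgenic arrays, so control replicate 1 lay within their range. Tcp1, the founding subunit, behaved alike, at 11.29 against 10.56 and 10.64, and 11.47, 11.18 and 11.37. Relative to the mean of control replicates 2 and 3, the median over the subunits was 0.66 in control replicate 1 and 0.93, 0.63 and 0.88 in transgenic replicates 1 to 3. The same array is the one whose Msi2 value lay in the transgenic range, and its summed T cell and intraepithelial lymphocyte markers were the highest of all 6, at 13.19, as was its Dcn. The part of any of these in the chaperonin values was not tested.

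**Figure D3:**
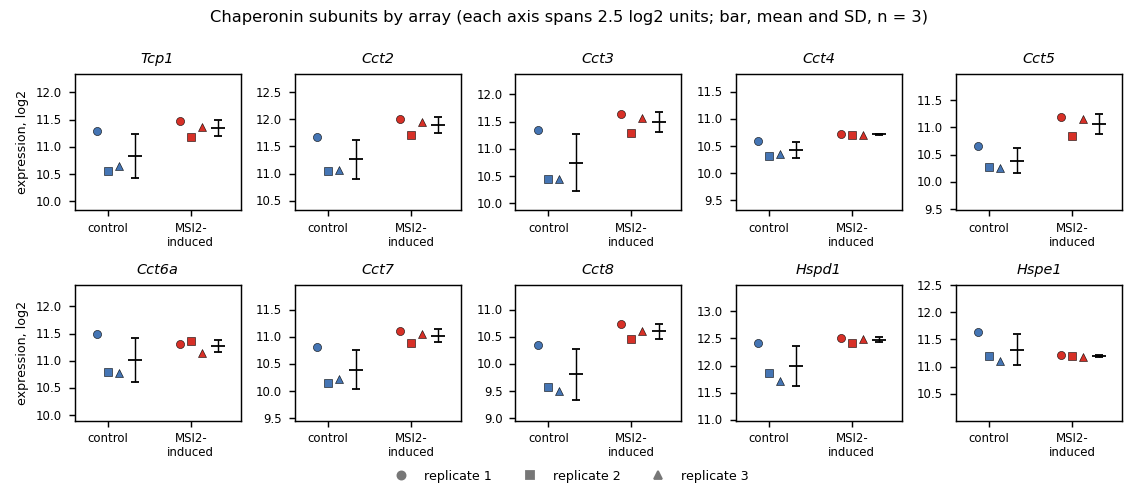
Log2 expression of the 8 CCT subunits and of the mitochondrial chaperonin pair Hspd1 and Hspe1 in each array, with the mean and SD of each group (n = 3) as a bar. Control replicate 1 lies above the other controls in every panel, and every transgenic (MSI2-induced) array lies above it except in Hspe1, Cct6a, Cct3 and Tcp1. For Hspd1 this holds narrowly, and only on the probe set shown.

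The mitochondrial chaperonin is a barrel of HSP60, encoded by Hspd1, closed by a lid of HSP10, encoded by Hspe1. Hspd1 read 12.41, 11.87 and 11.71 in the controls and 12.51, 12.42 and 12.48 in the arrays labelled transgenic. Control replicate 1 lay almost level with the lowest transgenic array and the other controls well below it. The difference of 0.47 missed the threshold (adjusted p = 0.133) and reached it without control replicate 1, at 0.68 (adjusted p = 0.00597 in limma). On the other Hspd1 probe set control replicate 1 read 12.37, within the transgenic range of 12.25 to 12.37, so the groups overlapped there. Hspe1 read 11.64, 11.19 and 11.10 against 11.21, 11.20 and 11.18, a difference of -0.11 with an interval from -0.47 to 0.25.

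The 2 genes are transcribed away from each other, and their promoter windows in the RefSeq table share 285 bases. Hspd1 minus Hspe1 within each array was 0.78, 0.68 and 0.62 in the controls and 1.30, 1.22 and 1.30 in the arrays labelled transgenic. This difference did not overlap between groups and was 0.58 larger in the transgenic arrays. An exact two-sided permutation test gave p = 0.1, the smallest that 3 against 3 arrays allow. Groups of this size without overlap always give that value, so the test adds nothing to the lack of overlap. The other probe sets of both genes, read on the same arrays, gave 0.59 (exact p = 0.1, permutation test). In those, control replicate 1, at 0.85, was above the other controls, at 0.54 and 0.44, and below the transgenic arrays, at 1.14 to 1.25. The size of such a difference between probe sets has no meaning of its own, and only its change between arrays was compared.

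**Figure D4:**
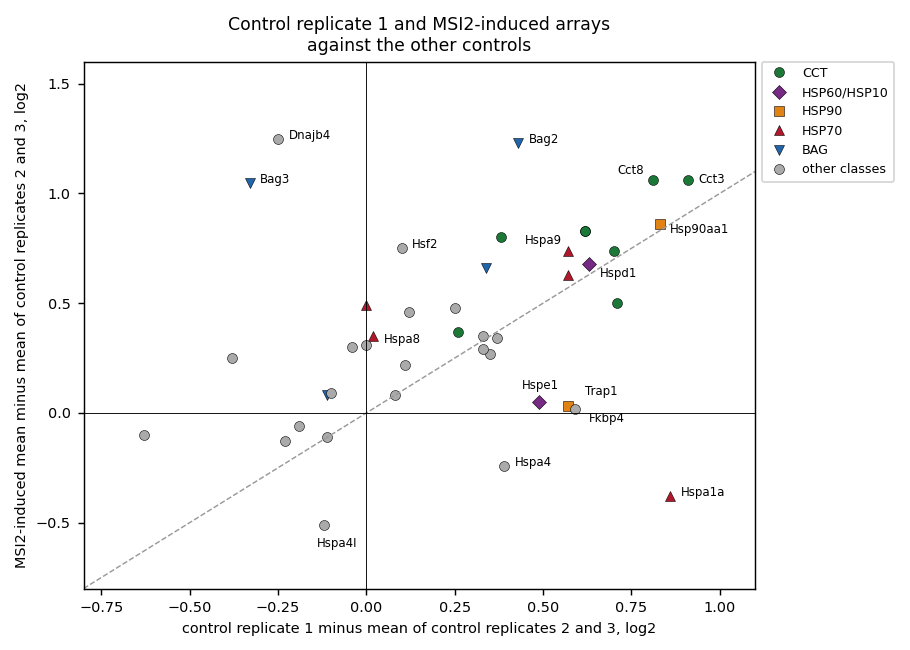
Control replicate 1 (x axis) and the mean of the transgenic (MSI2-induced) arrays (y axis), each minus the mean of control replicates 2 and 3, for the 42 chaperone genes on the log2 scale. Both axes share control replicates 2 and 3; the dashed line marks equal values, near which Cct3, Tcp1, Hspd1 and Hsp90aa1 lie, while Bag3, Dnajb4 and Hsf2 lie well above it and Hspa1a and Hspa4 below.

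Over all 42 members control replicate 1 was above both other controls in 28 (66.7%), as it was in 39.2% of all genes. The families differed in this. All 8 CCT genes, both HSP90 genes and both mitochondrial chaperonin genes had it as the highest control, by a median of 0.66, 0.70 and 0.56 log2 units. In the J proteins the median was -0.04. Bag3 and Dnajb4, at -0.33 and -0.25, were lower in control replicate 1 than in the mean of the other controls. Without it their differences were 1.05 and 1.25, against 1.16 and 1.33 with it.

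Heat shock elements are inverted repeats of GAA, and the promoter windows (250 bases before to 50 after a gene's start, RefSeq, build GRCm38.p6) were searched for the letters GAANNTTCNNGAA and for the shorter GAANNTTC on both strands. Every match of the longer motif holds the shorter. Windows were listed for 37 members, those of Hspa1b included. The longer letters were in 5 of them (13.5%) and in 0.662% of 27025 genes, and the shorter in 14 (37.8%) and in 9.04% of all genes. These stretches show the matches of the members that hold the longer letters, and of Hspa1a and Bag3 for the shorter, with the motif in capitals, 5′ to 3′ along the gene.
Hspe1, shared with Hspd1, chr1:55088039-55088096, + strand: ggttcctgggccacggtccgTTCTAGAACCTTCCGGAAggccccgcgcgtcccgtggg
Dnajb6, chr5:29735832-29735874, + strand: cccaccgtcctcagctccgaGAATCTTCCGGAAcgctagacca
Hspa1a, chr17:34972233-34972280, - strand: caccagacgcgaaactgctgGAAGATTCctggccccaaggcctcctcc
Chordc1, chr9:18292260-18292288, + strand: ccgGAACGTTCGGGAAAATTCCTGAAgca
Hsph1, chr5:149636280-149636308, - strand: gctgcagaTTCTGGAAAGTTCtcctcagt
Bag3, chr7:128523613-128523632, + strand: tggatgggaccaGAAGTTTC

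Counting the start as 1 and the base before it as -1, the motif of Hspe1 lies at -89 to -72, that of Dnajb6 at -46 to -34 and that of Hspa1a at -104 to -97. Those of Chordc1, Hsph1 and Bag3 reach into the first 50 bases of the transcript. The Hspa1b window differed from that of Hspa1a at 4 of 300 bases, and its stretch at chr17:34959315-34959362 read the same as the one shown. The 5 members with the longer letters were Hspd1, Hspe1, Dnajb6, Hsph1 and Chordc1, and none of them passed in limma on all 6 arrays, although Hspd1 did at an unadjusted p under 0.05, as did Dnajb6. Of the 7 members that rose and had a listed window (Hspb8, Dnaja2, Dnajb4, Bag2, Bag3, Cct5 and Hsf2), none held the longer letters, and Hspb8 and Bag3 held the shorter. A match of letters does not show binding, and its absence concerns these windows only.

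Other chaperone and folding genes, listed by function or family name, gave a setting for the members. Of 86 measured, 13 rose (15.1%) and 11 fell (12.8%) in limma, against 8.97% and 9.65% of all genes, and their median log2 difference was 0.03. In the group of prefoldin, its relatives and phosducin-like proteins, which pass nascent actin and tubulin to CCT or regulate it, 5 of 10 rose. None fell, and the counts were the same at an unadjusted p under 0.05. Pfdn2 read 10.02, 8.99 and 9.20 in the controls and 10.79, 10.20 and 10.90 in the arrays labelled transgenic, a rise of 1.22 ± 0.32 (SE) (adjusted p = 0.0447, up to 0.151 with 1 array left out, in limma), with control replicate 1 again the highest control. Pfdn4 rose by 0.78, Vbp1 by 0.38, and the phosducin-like Pdcl and Txndc9 by 0.58 and 0.42. The prefoldin subunits Pfdn5, Pfdn6 and Pfdn1 differed by -0.25, -0.12 and 0.03 and did not pass.

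Among 16 further genes that assist HSP90 or direct its clients, 3 rose and 4 fell. Ppid, the cyclophilin 40 gene, rose by 0.82, Sugt1 by 0.44 and the myosin chaperone Unc45a by 0.45, whereas Ttc4 (-0.86), Ahsa2 (-0.65), Stub1 (-0.51) and Fkbp8 (-0.44) fell. Fkbp5, a glucocorticoid-induced immunophilin named after its value was seen, differed by 2.06 ± 0.67 (SE), which missed the threshold (adjusted p = 0.0828) and reached it when the replicate number or sex was blocked (adjusted p = 0.0468 and 0.0481) and, at 2.68, without control replicate 1 (adjusted p = 0.0169 in limma). Without control replicate 2, the lowest array, its difference was 1.29 (adjusted p = 0.0737 in limma). Of 12 genes of mitochondrial protein import and quality control, Grpel2, an exchange factor of mitochondrial HSP70, rose by 0.72, and Htra2 (-0.84), Spg7 (-0.82) and Timm44 (-0.32) fell. Timm44 did not pass with the replicate block (adjusted p = 0.0566 in limma), and Grpel1, at 0.78, missed the threshold (adjusted p = 0.0595) and reached it with the block and without control replicate 1 or transgenic replicate 2 (adjusted p = 0.0202, 0.0127 and 0.037 in limma). Hspa13, an HSP70 relative of microsomes, rose by 0.99 (adjusted p = 0.00591, up to 0.0339 with 1 array left out, in limma).

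Of 29 other J proteins 2 rose and 3 fell. The cysteine string protein gene Dnajc5 read 10.40, 10.48 and 10.56 in the controls and 11.35, 11.22 and 11.48 in the arrays labelled transgenic, a rise of 0.87 ± 0.10 (SE) (adjusted p = 0.00503, up to 0.0318 with 1 array left out, in limma). Dnajc27 rose by 0.81. Dnajc19, of the mitochondrial import motor, had a log2 difference of -0.92, Dnajb7 of -0.81 and the endosomal Dnajc13 of -0.60. Among 5 relatives of the heat shock factors and their binders, Hsf2bp rose by 0.52 (adjusted p = 0.0461, and 0.052 with the replicate block, in limma), and Hsf4, Hsf5, Hsf3 and Hsbp1 differed by -0.14 to 0.07. Of 7 other genes listed as small heat shock proteins, Hspb11, placed there by its symbol only, was lower (-0.57), and no other passed. Hspb11 read 5.06 to 5.97 in the 6 arrays, below the array medians. Hspa13, Dnajc5, Ttc4 and Htra2 kept their calls whichever array was left out, and each other call in this list was lost without at least 1 array.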

How the data were processed

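The deposited values are log2 expression per probe set, normalized by the authors with RMA in Partek, per the submitters' processing notes, which give no version or setting. RMA equalises arrays, so a global shift in RNA is removed and dim probe sets are compressed. Of 28350 probe sets, 21780 named 1 gene, 1618 several and 4952 had no name in the table used. Gene identifiers matched RefSeq GRCm38.p6 for 21689, which supplied current symbols. Each gene was read by its 1-gene probe set with the highest mean, giving 19933 genes, with no filter on dim ones. Of the members, 6 had more than 1 such probe set. Array medians lay between 6.42 and 6.46. Precision is limited by the number of arrays.

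Groups came from the sample labels. The test was limma 3.58.1 (R 4.3.3; lmFit and eBayes, two-sided) on group alone, adjusted by Benjamini-Hochberg across the 19933 genes, with a threshold of 0.05 and 95% intervals. The fit was tested on simulated data with independent noise and no effect shared by the genes of an array. That test does not bear on how results change with single arrays. Differences are transgenic minus control, and SE is the moderated standard error. The limma p-values set a group difference against the spread between these samples, moderated across genes. The exact permutation p-values count relabellings of the 6 arrays. Deviations from the group means of same-numbered arrays correlated by 0.52, 0.41 and 0.13 across genes, so the replicate number was also fitted as a block. Differently numbered arrays correlated by -0.44 to 0.32. The 0.32, of control replicate 3 with transgenic replicate 2, was above the 0.13 of the third pair, so these correlations do not settle the pairing. The pairing comes from these values and the shared numbers, since no label says what a number shares. Sex was read from Xist and Y-linked transcripts (2 control and 1 transgenic female). No pair of arrays held identical values. Named genes were all members, the other chaperones past the threshold, and a few named for contrast. The members, lists and tests were chosen with earlier results of these data known. Alternatives were the block, the mean of all probe sets, genes with a mean of at least 6, quantile normalization done again, an intensity trend, centring on medians, array weights, sex as a block and leaving out each array.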

Additional observations from a re-analysis of the deposited data

How the results depend on the processing

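The number of members that rose, 8 on all 6 arrays, was 13 with the replicate block, 22 with array weights, 2 with sex as a block and between 1 and 19 with 1 array left out, the 19 without control replicate 1. It was 6 to 9 under the other alternatives. The number that fell was between 0 and 1 with 1 array left out in limma, and 1 otherwise. The 0 came without control replicate 2 and without transgenic replicate 3, where 1 member each was lower at an unadjusted p under 0.05. The members' median log2 difference stayed between 0.30 and 0.35. Other chaperones that rose, 13 in the main comparison, were 26 with array weights and 2 to 26 with 1 array left out, and those that fell, 11, were 7 with sex as a block and 2 to 16 with 1 array left out. Over all genes, 1787 higher became 3630 with array weights, 1068 with sex as a block and 476 to 2663 with 1 array left out. The 1923 lower became 3442, 1091 and 476 to 2879. No called member changed direction in any alternative. Beside the calls given with the results, the replicate block changed the call of no other member. The array weights were 0.33, 1.95 and 1.78 in control replicates 1 to 3 and 1.08, 0.58 and 1.39 in transgenic replicates 1 to 3. Control replicate 1 thus counted least, and the fit with weights is not separate from the fit without that array. The cause of the changes with weights, sex and left-out arrays was not tested.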
